A study of Caenorhabditis elegans with 146 samples.

Results

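The genes described here encode the machinery that transcribes protein-coding genes: RNA polymerase II (Pol II), the general factor TFIID and the Mediator complex. They were chosen by name alone, as ama-1 and every gene whose WormBase symbol is rpb-, taf- or mdt- followed by a number. The rule found 49 genes among 46927 in the count table, of which 12 encode Pol II subunits, 17 TFIID subunits and 20 Mediator subunits. Mediator subunits known under other symbols fall outside this rule and are named as such where they appear.

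RNA was sequenced from single gonad segments, single oocytes and single zygotes of Caenorhabditis elegans, dissected from well-fed gravid hermaphrodites of strain AZ212, which carries an H2B::GFP fusion driven by the pie-1 promoter. The comparison is between positions along the gonad, with no treatment and no second genotype. The 104 libraries that passed the study's quality filters came from 8 stages. S1, the distal proliferative zone, had 19 libraries. Its titles read mitotic region and transition zone, the latter being where germ cells enter meiosis. S2, the pachytene region, and S3, the loop where cells are in diplotene, had 17 each. S4, the diakinesis zone ahead of the oocyte row, had 11. The -3, -2 and -1 oocytes, counted from the spermatheca, had 6, 13 and 15, and the P0 zygote, collected at pronuclear fusion, had 6. A somatic sheath wraps the gonad, so a segment or oocyte can carry sheath RNA. In all, 82 libraries were from batch A and 22 from batch B, both present at every stage, and total counts ran from 1273040 to 73449925 reads with a median of 3120025.5.

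Levels are given as TPM, transcripts per 1000000, which divides reads by transcript length, and each stage is described by its lowest, median and highest library. Germline markers pgl-1, pgl-3 and glh-1 were present at every stage, with stage medians of their summed level from 194 to 297 TPM. The 6 growing-oocyte markers had summed medians from 380 TPM in S1 to 7431 TPM in the -3 oocyte. The labels of the distal segments could not be checked by sygl-1 and lst-1, markers of distal mitotic germ cells. Their summed median was 169 TPM in S1, 106 TPM in S2 and 672 TPM in S3. It stayed between 672.5 TPM (-1 oocyte) and 1032 TPM (P0) at later stages, so it was not specific to the distal segments. The distal tip cell markers lag-2, mig-6 and gon-1 were highest in S1, with a summed median of 2.79 TPM against at most 0.229 TPM at any other stage. In 4 libraries the profile of the 49 genes correlated below 0.75 with the rest of their stage (1 each in S1, S4, the -2 oocyte and P0), against 0.768 or more in the others. The P0 library among them was also the deepest.

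Pol II binds promoters only with the help of general factors. TFIID, built of the TATA-binding protein and TBP-associated factors (TAFs), recognizes the core promoter, and Mediator carries signals from gene-specific activators to the polymerase. In C. elegans, the germline transcribes actively through pachytene and early oocyte growth, transcription stops in late oocytes, and the zygote relies on stored maternal RNA until its own genome is switched on.

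All 3 complexes were represented at every stage. The median summed share of the RNA was smallest in S1 or S2 for each of them and largest in the zygote for Pol II and TFIID and in the -3 oocyte for Mediator, at 2885 TPM. That Mediator peak rested on mdt-22, and without this gene the Mediator median was largest in the zygote too, at 1830.0 TPM against 1239 TPM in the -3 oocyte. The 12 Pol II genes summed to 652, 1202 and 1469 TPM (lowest, median and highest library) in S1, to 1050.0, 1856 and 2173 TPM in S4, to 997, 1503 and 4123 TPM in the -1 oocyte and to 2352, 2842 and 5754 TPM in P0. The TFIID sum had medians of 374 TPM in S1, 961 TPM in S4, 763 TPM in the -1 oocyte and 1358 TPM in P0. The Mediator sum had medians of 1169, 2607, 1675 and 2291 TPM at the same 4 stages. These sums depend on the scale and were not tested. The median Pol II sum in S4 was 1.54 times that in S1 in TPM but 0.98 times in CPM (reads per 1000000 counted), and the TFIID and Mediator sums were 2.57 and 2.23 times as high in TPM against 1.54 and 1.47 times in CPM. In whole segments, fewer cells of a type and less RNA per cell cannot be told apart. Batch B moved 21 of 24 stage sums by more than the spread between libraries, with the Mediator sum lower in it at every stage.

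**Figure D1:**
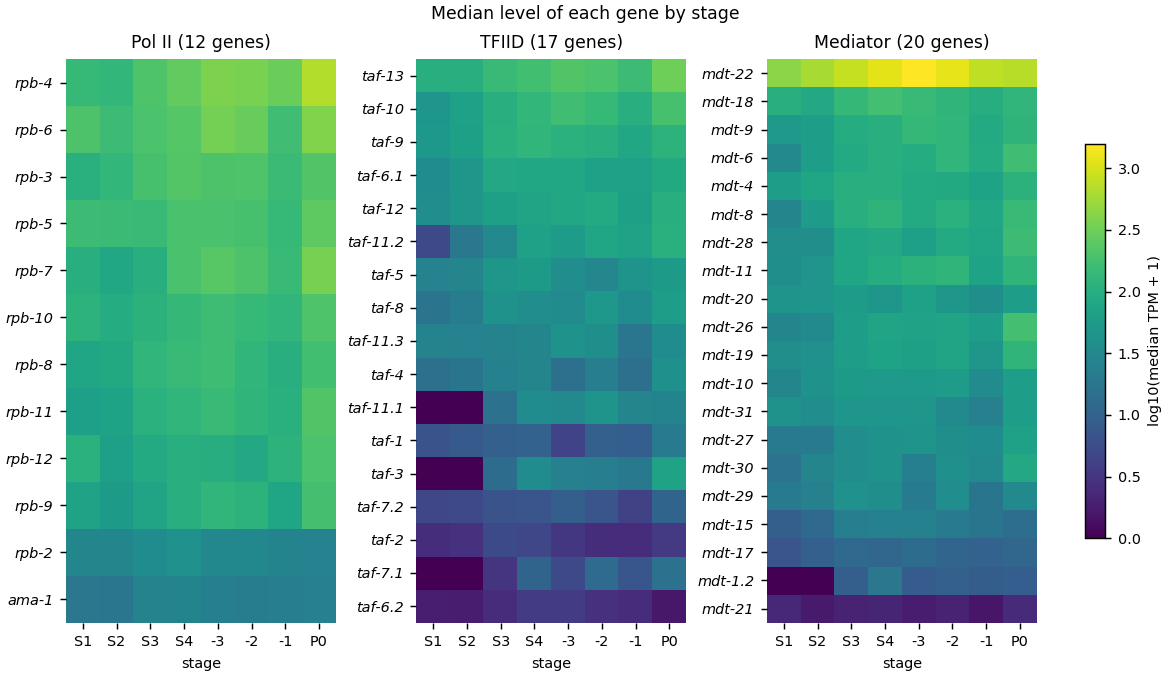
Median level of each of the 49 genes in 8 stages, as log10(median TPM + 1), with the genes of each complex ordered by their median over all libraries. The highest value is mdt-22 in the -3 oocyte at 1562 TPM, and the squares at 0 in S1 and S2 are taf-3, taf-11.1, taf-7.1 and mdt-1.2, each with a median of 0 TPM.

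Within a complex, levels spanned a wide range although the proteins assemble together. Among Pol II genes, the median over all libraries ran from 21.4 TPM for ama-1, the catalytic subunit with the heptad-repeat tail, to 222 TPM for rpb-4, which forms the stalk with rpb-7. TFIID genes ran from 1.31 TPM for taf-6.2 to 130.3 TPM for taf-13, the histone-fold partner of the TAF11 proteins. Mediator genes ran from 0.965 TPM for mdt-21 to 722 TPM for mdt-22, a head module subunit. Longer genes had lower levels, with a Spearman correlation of exon length and level of -0.714 over the 49 genes, which share libraries and depth, and of -0.245 within Pol II, -0.632 within TFIID and -0.453 within Mediator. The median was highest in P0 for 32 of the 49 genes and lowest in S1 or S2 for 38. The matching shares over all genes were not counted, so these numbers do not set the subunit genes apart.

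Ama-1 (chromosome IV, 4248070 to 4258169 in build WBcel235) had overlapping levels at all stages. It measured 0.575, 17.7 and 37.9 TPM in S1, 0.413, 26.9 and 70.2 TPM in S4, 1.504, 22.5 and 46.5 TPM in the -1 oocyte and 2.36, 23.8 and 53.3 TPM in P0. It was not called between any pair of stages tested. Its lowest adjusted p between neighbors, by edgeR, was 0.0604, for a log2 fold change of -1.02 ± 0.36 (SE) from S2 to S3. On the TPM scale it was instead higher in S3 in 8 of 9 worms. That fit corrected for the share of genes a library detects, and stage accounted for 0.619 of the variance of that share. Stage medians lay between 17.4 and 48.4 TPM in batch A and between 2.76 and 7.65 TPM in batch B.

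The first comparison asks what changes from the mitotic region and transition zone to pachytene. Read counts were compared by edgeR's quasi-likelihood test, corrected for batch and for the detection rate, the share of genes a library detects. Called genes are those with a fold change above 1.5 whose p, after Benjamini-Hochberg adjustment over all genes tested, is under 0.05. From S1 to S2, 5 of the 44 subunit genes with enough reads were called (11.4%), against 17.1% of all 5253 genes tested. Lower in S2 were 4 (9.09%, against 8.81% of all genes), 3 of them Pol II genes, and 1 was higher (2.27%, against 8.24%). The share called lower was close to the background and the other shares were below it, so the counts do not set these genes apart.

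The stalk gene rpb-7 measured 5.57, 101 and 214 TPM in S1 and 10.8, 80.7 and 101 TPM in S2. The ranges overlapped, but in the 11 worms that gave both segments it was lower in S2 in 11 of 11. Its log2 fold change was -0.90 ± 0.27 (SE, adjusted p = 0.0119 by edgeR). The genes rpb-6 and rpb-12 encode small subunits that Pol II shares with RNA polymerases I and III. The level of rpb-6 was 8.26, 200.2 and 309 TPM in S1 and 71.9, 155 and 302 TPM in S2, and it too was lower in S2 in 11 of 11 worms (-0.71 ± 0.22, edgeR adjusted p = 0.0150). The level of rpb-12 was 41.1, 110.3 and 148 TPM in S1 and 16.5, 62.3 and 114 TPM in S2, lower in 10 of 11 worms (-0.88 ± 0.23, edgeR adjusted p = 0.00499). Over the 12 Pol II genes, 11 had a negative log2 fold change, with a median of -0.40 against -0.04 over all genes. Without the detection covariate, or in batch A alone, 2 were positive. Among the other Pol II genes, rpb-4 and rpb-9 were lower in S2 in the most worms, 9 of 11 in TPM. The fewest were 2 of 11 for rpb-11 and 3 of 11 for rpb-3.

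Among the other complexes, mdt-31, a Mediator middle module subunit, measured 0.306, 43.2 and 112 TPM in S1 and 13.9, 35.8 and 59.5 TPM in S2 and fell (-0.82 ± 0.28, edgeR adjusted p = 0.0339), with 9 of 11 worms lower. The one gene that rose was taf-11.2, a TFIID gene described with its paralogs below. With the worm as a block over the 11 worms, 8 subunit genes were called, since rpb-2 and rpb-9 also fell and mdt-6 also rose. In batch B alone none was called.

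Polymerases I and III moved the same way in the same test. Of their 10 genes tested, 9 fell from S1 to S2, from rpc-1 (-0.59 ± 0.15, edgeR adjusted p = 0.00351) to rpoa-1 (-1.08 ± 0.32, adjusted p = 0.0124), and none rose. The elongation factor genes spt-4 (-0.64 ± 0.20) and spt-5 (-0.72 ± 0.17), whose products form the DSIF complex, fell as 2 of 21 elongation and tail-modifying factors, a share near the 8.81% of all genes called lower. Of 15 general factor genes tested, gtf-2F1 and gtf-2H5 (-0.64 ± 0.22 and -0.87 ± 0.26) fell, which encode subunits of TFIIF and TFIIH, and the medians of these lists were -0.05 and -0.11.

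**Figure D2:**
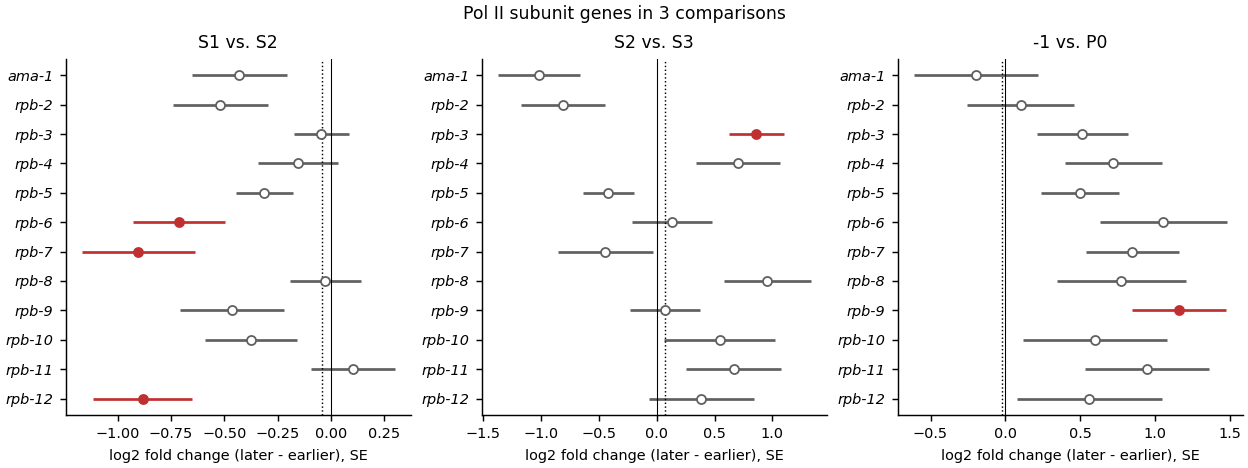
Log2 fold change (later minus earlier stage, with its SE) of the 12 Pol II genes in 3 comparisons, with called genes filled in red and the dotted line at the median of all genes tested. From S1 to S2 11 of 12 points lie below 0, and from the -1 oocyte to P0 11 of 12 lie above it.

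From S2 to S3, where germ cells pass from pachytene to diplotene, 5 of 46 subunit genes were called and all 5 rose (10.9%, against 8.04% of all genes called higher, 2.22% lower and 10.3% in either direction). The largest change was in the X-linked gene taf-11.1, given below. The others were rpb-3 (0.86 ± 0.24), a Pol II assembly subunit, the histone-fold genes taf-9 (1.24 ± 0.25) and taf-13 (1.03 ± 0.31), and mdt-28 (1.25 ± 0.29), with edgeR adjusted p from 0.00100 for taf-9 to 0.0296 for taf-13. In TPM, rpb-3 measured 66.7, 132 and 201 in S2 and 124, 186 and 326 in S3, and mdt-28 measured 15.9, 37.1 and 65.1 in S2 and 50.7, 77.3 and 116 in S3. Both genes overlapped between the stages, and both were higher in S3 in 8 of 9 worms on the TPM scale.

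These 4 autosomal calls depended on a covariate that is partly shared with the stage. The share of genes detected was 12.7% in S2 and 16.7% in S3, and stage accounted for 0.619 of its variance. Without it the log2 fold changes were 0.05 for rpb-3, 0.12 for taf-13, 0.16 for taf-9 and 0.53 for mdt-28, none of the 4 was called, and only taf-11.1 and mdt-1.2 were. With the worm as a block over 9 worms no gene was called, and without the covariate as well, 2 were (taf-11.1 higher and rpb-5 lower). In that last fit the log2 fold changes of rpb-3, taf-13 and taf-9 turned negative, at -0.21, -0.11 and -0.13, and that of mdt-28 was 0.26.

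Of 15 general factor genes tested 1 was called, gtf-2E2 of TFIIE, which rose (0.83 ± 0.28). Of 21 elongation and tail-modifying factors 3 were called. Of these, hmg-4 (1.07 ± 0.33) and ssup-72 (1.49 ± 0.37) rose, while the cyclin T gene cit-1.2 fell (-1.48 ± 0.39). Of 10 genes of polymerases I and III 2 were called, with rpoa-12 higher (1.41 ± 0.35) and rpoa-49 lower (-0.92 ± 0.30). Over all genes 10.3% were called. In a fit this close to the covariate these values carry the same limit.

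The 4 X-linked subunit genes were nearly absent from the 2 distal segments and present in the loop and beyond. They are taf-3 (16332435 to 16346028), taf-7.1 (11836068 to 11837478) and taf-11.1 (4255170 to 4256812) of TFIID and mdt-1.2 (17151522 to 17154647) of Mediator, a homolog of MED1. In C. elegans the X chromosome is known to be largely silent in mitotic and early meiotic germ cells and to be transcribed in growing oocytes.

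No read of taf-7.1 was counted in the 19 S1 libraries and 1 in the 17 S2 libraries, while 15 of 17 S3 libraries had reads. Its TPM ran from 0 to 0.0487 in S2, was 0, 2.09 and 11.28 in S3 and 0, 9.63 and 26.0 in S4. The gene taf-3 had reads in 3 S1 libraries, 4 S2 libraries and all 17 S3 libraries, and measured 0, 0 and 0.695 TPM in S2, 0.451, 12.5 and 52.7 TPM in S3 and 0, 35.1 and 115 TPM in S4.

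The gene taf-11.1 had reads in 2 S1 libraries, 3 S2 libraries and all 17 in S3, with 0, 0 and 7.66 TPM in S2, 2.45, 14.5 and 43.5 TPM in S3 and 1.76, 34.6 and 70.4 TPM in S4. For mdt-1.2 the counts were 1 S1 library, 3 S2 libraries and all 17 in S3, with 0, 0 and 2.90 TPM in S2, 0.311, 8.21 and 20.98 TPM in S3 and 0.177, 17.5 and 26.4 TPM in S4. The reads outside S3 and later came from few libraries. One S2 library of batch A (worm 34) held 20 of the 22 S2 reads of taf-11.1 and 23 of the 57 S2 reads of mdt-1.2. One S1 library of batch B held 101 of the 102 S1 reads of taf-11.1, and another held 107 of the 109 S1 reads of taf-3.

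All 4 genes were higher in S3 than in S2 in 9 of 9 worms. Pooled over batch A, the share of reads in S3 was at least 84.5-fold that in S1 and S2 together for taf-7.1, taking 3 reads over the group as the limit a count of 0 allows. It was 154-fold for taf-3 (95% exact interval 94.9 to 271), 60.1-fold for taf-11.1 (39.8 to 95.5) and 65.7-fold for mdt-1.2 (43.9 to 103), and these intervals cover counting error only. The last 2 folds depended on the library of worm 34, which held 20 of the 23 and 23 of the 24 reads in S1 and S2. Without it, a setting chosen after seeing the data, 3 reads of taf-11.1 and 1 of mdt-1.2 were left there and the folds were 449 (153 to 2180) and 1530 (275 to 60600).

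By edgeR, taf-11.1 rose from S2 to S3 with a log2 fold change of 5.53 ± 1.12 (adjusted p = 0.000875, n = 17 and 17 libraries). For mdt-1.2 the value was 2.65 ± 1.12 (adjusted p = 0.126), or 4.36 ± 0.77 (adjusted p = 1.25e-05) without the detection covariate. The other 2 fell below the low-count filter. Without that filter taf-7.1 rose (4.39 ± 1.07, edgeR adjusted p = 0.00392) and taf-3 had 2.12 ± 0.99 (adjusted p = 0.193), or 5.66 ± 0.65 (adjusted p = 1.57e-09) without the covariate as well. With so few reads in S2 the fitted sizes depend on the prior count. The block fit gave 7.17 for taf-11.1 (adjusted p = 0.611), and 7.13 (adjusted p = 2.77e-06) without the covariate.

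Such low levels were common among X-linked genes. Of the genes with a median of at least 5 TPM in the -1 oocyte, 498 of 620 X-linked genes (80.3%) had medians under 0.5 TPM in both S1 and S2, against 562 of 5496 autosomal genes (10.2%). Among subunit genes at that level these numbers were 4 of 4 X-linked and 0 of 41 autosomal ones. The summed level of the 10 sheath markers, 25.1 TPM in S1, 35.8 TPM in S2 and 124 TPM in S3 by median, rose at the same step, and its part in these levels was not tested. For taf-7.1, 10.5% of exon bases overlap tag-241 on the other strand. The level of taf-3 also differed by batch, at 22.2 TPM in S3 by median in batch A and 0.758 TPM in batch B.

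**Figure D3:**
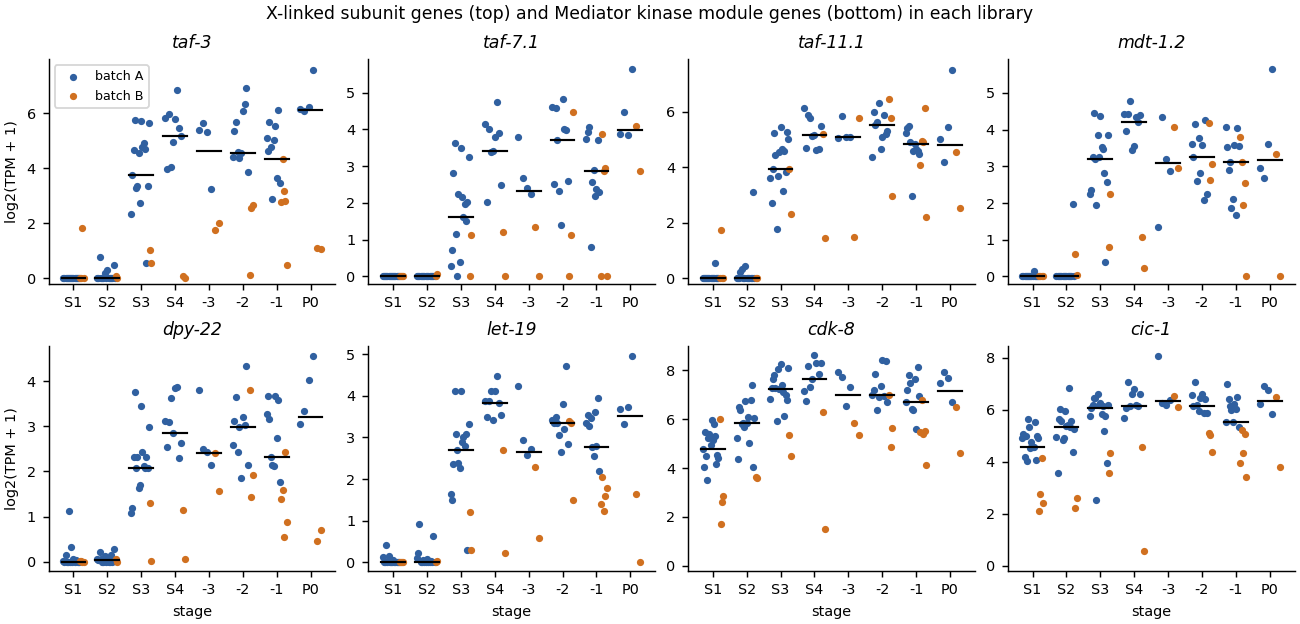
Level of the 4 X-linked subunit genes (top) and of the 4 Mediator kinase module genes (bottom) in each library, as log2(TPM + 1), by stage and batch, with a line at the median. The top 4 genes, dpy-22 and let-19 sit at or near 0 in most S1 and S2 libraries and above it in most libraries from S3, while cdk-8 and cic-1 are present from S1.

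The Mediator kinase module, a dissociable part that can hold Mediator off the polymerase, held genes of both kinds. Its 4 genes carry other symbols. The kinase cdk-8 (2.32, 26.6 and 63.1 TPM) and its cyclin cic-1 (3.23, 22.9 and 49.5 TPM) were present in S1. The scaffold genes dpy-22 (MED12, chromosome X) and let-19 (MED13, chromosome II) measured 0, 0 and 1.19 TPM and 0, 0 and 0.338 TPM there. By S4 their medians were 6.28 and 13.3 TPM, with ranges from 0.0453 to 13.7 and from 0.163 to 21.1 TPM.

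Pooled over batch A, reads of dpy-22 were 40.0-fold more frequent in S3 than in S1 and S2 (33.3 to 48.5) and those of let-19 57.1-fold (47.6 to 68.9). By edgeR, dpy-22 rose from S2 to S3 (4.43 ± 0.82, adjusted p = 0.000326), while let-19 had 1.61 ± 1.32 (adjusted p = 0.490), or 5.21 ± 0.67 (adjusted p = 8.10e-08) without the detection covariate. Both rose from S1 to the -1 oocyte, by 6.84 ± 1.70 (adjusted p = 0.00253) and 8.00 ± 1.34 (adjusted p = 1.83e-05). The gene cdk-8 rose from S1 to S2 (0.75 ± 0.27, edgeR adjusted p = 0.0448), a call lost without the covariate (adjusted p = 0.0687). The genes dpy-22 and let-19 are long, with 10867 and 9278 exon bases, against 2010 for cdk-8 and 1000 for cic-1.

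TFIID and Mediator include several subunits with more than 1 gene, and the copy that gave most of the RNA differed between stages for taf-7 and taf-11. TAF11 pairs with TAF13 through a histone fold. In S1, taf-11.3 (chromosome III) was the highest of the 3 copies in 17 of 19 libraries, with a median of 79.5% of their summed TPM, and taf-11.2 (chromosome I) had 16.2%. In the -2 oocyte taf-11.2 was the highest in 12 of 13 libraries and in the -1 oocyte in 14 of 15, where its median share was 63.1%, against 22.6% for taf-11.1 and 15.8% for taf-11.3. From S3 on, the median share of taf-11.2 was above that of taf-11.3.

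The level of taf-11.2 was 0, 4.14 and 40.7 TPM in S1, 1.51, 18.1 and 51.05 TPM in S2, 10.6, 31.02 and 78.2 TPM in S3 and 7.78, 68.0 and 126 TPM in the -1 oocyte. The ranges overlapped between all these stages, while every median was above the one before. It rose from S1 to S2 by 1.48 ± 0.45 on the log2 scale (edgeR adjusted p = 0.0166, higher in 10 of 11 worms), although in batch B alone the value was -1.45, and from S1 to the -1 oocyte by 3.34 ± 1.08 (adjusted p = 0.0220). The level of taf-11.3 was 0, 25.8 and 46.8 TPM in S1 and 0.163, 16.8 and 44.4 TPM in the -1 oocyte, and no pairwise test called it. In batch B its stage medians were at most 2.69 TPM, against 24.1 to 48.2 TPM in batch A.

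TAF7 binds TAF1 and restrains it in other species. Where any taf-7 copy was detected in S1, all of it came from taf-7.2 (chromosome III), at 0, 3.86 and 8.87 TPM. From S3 reads of the X-linked copy taf-7.1 were found as well, and it was the higher copy in 3 of 17 S3 libraries, 6 of 11 S4 libraries, 9 of 13 -2 oocytes and 10 of the 14 -1 oocytes with either copy. In the -3 oocyte it was the higher in 2 of 6, so the order was not steady. The level of taf-7.2 stayed at stage medians of 3.15 to 9.90 TPM.

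In the other pairs 1 copy gave most of the RNA. TAF6 pairs with TAF9, and taf-6.1 (0, 35.3 and 56.0 TPM in S1) exceeded taf-6.2 (0, 0.876 and 1.95 TPM) in every library except 1 of S1. For MED1, sop-3 (mdt-1.1) was the higher copy in all S1, S2, S3 and S4 libraries, but mdt-1.2 was the higher in 2 of 6 -3 oocytes, 2 of 13 -2 oocytes, 1 of 15 -1 oocytes and 2 of 6 zygotes. The median share of mdt-1.2 was 12.6% in S4 and 10.2% in the -1 oocyte. From S1 to the -1 oocyte mdt-1.2 rose by 8.87 ± 1.56 (edgeR adjusted p = 4.09e-05).

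**Figure D4:**
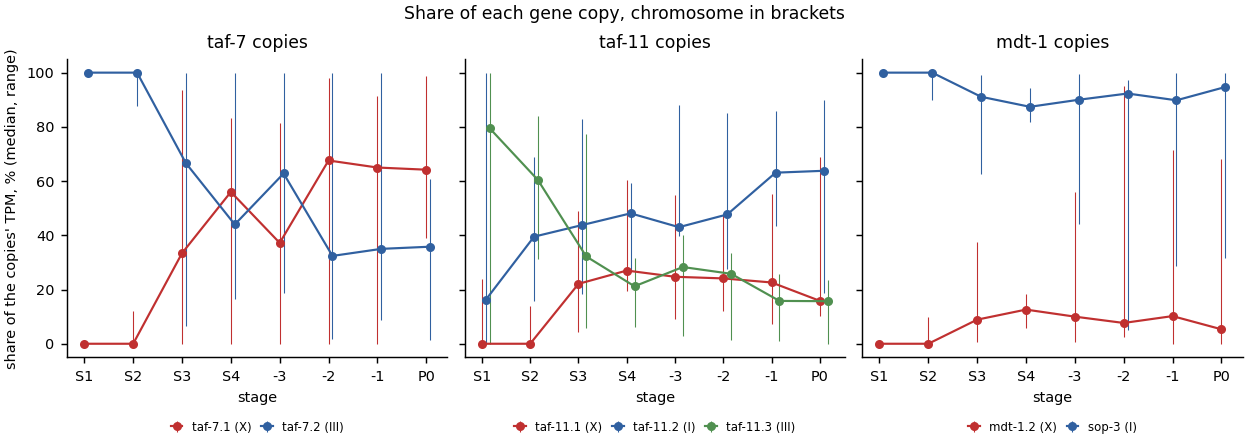
Share of the summed TPM of each gene family that came from each copy, as the median over libraries with the lowest and highest library as bars, for taf-7, taf-11 and mdt-1 across 8 stages. The median share of taf-11.3 falls from 79.5% in S1 to 15.8% in the -1 oocyte while that of taf-11.2 rises from 16.2% to 63.1%.

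The comparisons between S3 and the -1 oocyte asked what changes during oocyte growth and maturation, and the test called no subunit gene in any of them. From S3 to S4, 0 of 48 were called by edgeR and 0 by DESeq2, with 6 at an unadjusted p under 0.05, against 5.87% of all genes called (2.04% higher and 3.83% lower). The nearest was rpb-7, with 27.3, 102 and 219 TPM in S3 and 65.5, 192 and 373 TPM in S4 (log2 fold change 0.46 ± 0.17, edgeR adjusted p = 0.0983), and the stages overlapped. From S4 to the -3 oocyte, 0 of 48 were called by either tool, with 3 at an unadjusted p under 0.05, against 2.45% of all genes. With the worm as a block over 3 worms, taf-11.2 was called higher.

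Between the -3 and -2 oocytes edgeR called 0 of 48, as it did of all genes (0.0%), with 5 at an unadjusted p under 0.05. DESeq2 called 1, taf-8, a TFIID subunit that pairs with TAF10. Its level was 0.484, 34.4 and 53.2 TPM in the -3 and 16.6, 49.4 and 83.1 TPM in the -2 oocyte, which overlap (1.44 ± 0.41, edgeR adjusted p = 0.445). Between the -2 and -1 oocytes 0 of 48 were called by either tool, with 3 at an unadjusted p under 0.05, against 0.402% of all genes.

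Across the whole axis from S1 to the -1 oocyte, 3 of 47 genes tested were called and all 3 rose (6.38%, against 14.4% of all genes called higher, 9.17% lower and 23.5% in either direction). Besides mdt-1.2 and taf-11.2 this was mdt-26 (3.44, 28.6 and 69.2 TPM in S1, 6.77, 59.6 and 209 TPM in the -1 oocyte), a metazoan subunit tied to elongation factors in mammals, with a log2 fold change of 1.30 ± 0.42 (edgeR adjusted p = 0.0219). The detection covariate was again shared with the stage (0.607 of its variance). Without it 17 were called, 10 higher and 7 lower, and with the worm as a block over 7 worms 0 were, or 12 without the covariate.

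Over all 7 stages before fertilization, 16 of the 49 genes varied with stage by edgeR's F test (32.7%, against 58.0% of all genes). They were ama-1, rpb-4, rpb-7 and rpb-12 of Pol II, taf-3, taf-7.1, taf-8, taf-10, taf-11.1 and taf-11.2 of TFIID, and mdt-1.2, mdt-6, mdt-8, mdt-22, mdt-26 and mdt-29 of Mediator. The lowest adjusted p was 3.14e-11, for mdt-1.2. The mdt-22 level behind this call was 29.9, 443 and 1218 TPM in S1 and 129, 1562 and 1835 TPM in the -3 oocyte, the stage of its highest median. Its stage medians were 536 to 1680 TPM in batch A and 42.1 to 562 TPM in batch B, and batch B was the lower at every stage.

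Genes for known repressors of transcription in the early embryo rose over the same span. The products of oma-1 and oma-2 sequester TAF4 in the early embryo, and pie-1 represses Pol II in the germline precursor. From S1 to S2 oma-1 (1.13 ± 0.23) and oma-2 (1.00 ± 0.26) rose, and from S1 to the -1 oocyte all 3 did, by 2.02 ± 0.63, 3.26 ± 0.57 and 1.84 ± 0.52 on the log2 scale. The strain's transgene is driven by the pie-1 promoter, and its part in the pie-1 reads was not tested. The target taf-4 had medians of 14.03 TPM in S1, 24.7 TPM in S3, 14.2 TPM in the -1 oocyte and 38.9 TPM in P0 and was called in none of the pairwise tests.

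**Figure D5:**
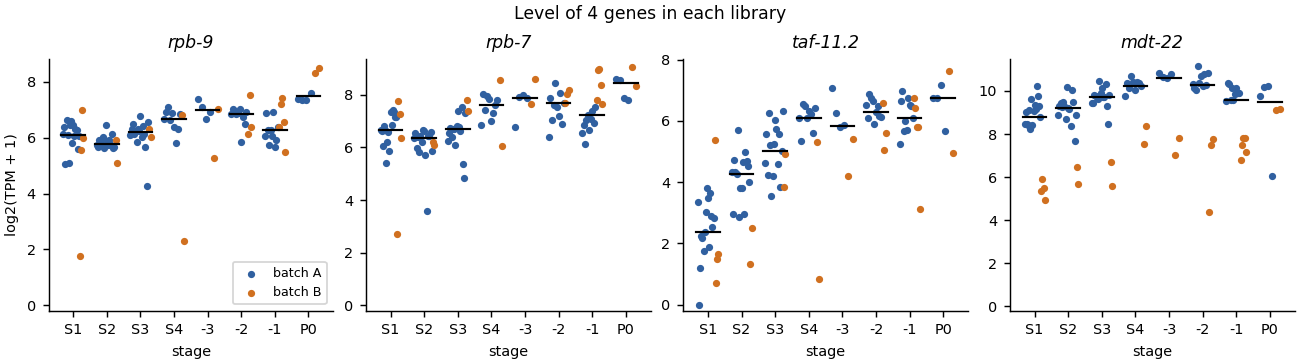
Level of rpb-9, rpb-7, taf-11.2 and mdt-22 in each library, as log2(TPM + 1), by stage and batch, with a line at the median. The rpb-9 points in P0 (161 to 357 TPM) lie above all but the highest -1 oocyte, and mdt-22 separates by batch.

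Fertilization was tested between the -1 oocyte and P0. Of 48 subunit genes, 1 was called and it rose (2.08%, against 0.119% of all genes called higher, 5.67% lower and 5.79% in either direction). It was rpb-9 (chromosome V, 8011213 to 8012345), a Pol II subunit that supports start-site choice and proofreading in yeast. Its level was 44.4, 76.7 and 172 TPM in the -1 oocyte and 161, 179 and 357 TPM in P0, with overlap at the edges of the ranges. The log2 fold change was 1.16 ± 0.31 (2.23-fold, edgeR adjusted p = 0.0264, n = 15 and 6 libraries).

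Within each batch the rpb-9 ranges did not overlap, although this was noticed after the values were seen. In batch A they were 49.3 to 119 TPM before and 161 to 192 TPM after fertilization, and in batch B 44.4 to 172 and 320 to 357 TPM. The call was nevertheless lost in batch A alone (0.80, edgeR adjusted p = 0.125), in batch B alone, fitted without the detection covariate (1.67, adjusted p = 0.302), without the low-count filter (adjusted p = 0.0534) and without the P0 library of batch B titled unknownB (0.82, adjusted p = 0.0845). No paired fit was possible, since no named worm gave both used libraries.

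Most other Pol II genes had values of the same sign, without passing the test. Of the 12 genes, 11 had a positive log2 fold change, with a median of 0.66, against a median of -0.02 over all genes. Of these, rpb-4 measured 142, 301 and 830 TPM in the -1 oocyte and 360, 678 and 1075 TPM in P0 (0.72 ± 0.33, edgeR adjusted p = 0.297), and rpb-6 measured 25.6, 165 and 436 TPM and 203, 392 and 613 TPM (1.05 ± 0.42, adjusted p = 0.202). Ama-1 was the exception in this fit, at -0.20 ± 0.42 (edgeR adjusted p = 0.902). In batch A alone all 12 were positive, and without the detection covariate 10 were. Of Mediator genes tested, 16 of 19 were positive with a median of 0.35, and of TFIID genes 10 of 17 with a median of 0.17.

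Other RNA in the samples changed at the same step. The median sum of 6 spermatheca markers was 14330 TPM in the -1 oocyte and 45.7 TPM in P0, with ranges up to 45650 and 388 TPM. The 10 sheath markers were at 992 and 5.43 TPM, with ranges of 271 to 2203 and 0.452 to 49.6 TPM, and lim-7, ceh-18, let-23, inx-8, inx-9 and myo-3 had a median of 0 in P0. Of the early zygotic genes, pes-10 and vet-6 had a median of 0 TPM at every stage, P0 included. The part of the somatic RNA in the values of the subunit genes was not tested, and a larger share of RNA cannot be told apart from more RNA of these genes.

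Some levels rest on shared exon bases. On the same strand, Y62E10A.23 covers 42.3% of the exon bases of mdt-9. Of mdt-18 and mdt-4, 34.2% and 17.6% lie opposite another gene. The effect of these overlaps on the counts and levels was not tested. In all, 14 of the 49 genes share exon bases with another gene. The gene mdt-21, a middle module subunit, had too few reads for any pairwise test, with stage medians from 0.577 to 1.51 TPM.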

How the data were processed

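Per the labels and methods, the authors trimmed reads with Trim Galore, mapped them to C. elegans build WBcel235 with HISAT2, counted reads per gene with HTSeq and estimated TPM with Salmon. The deposited count table holds raw counts of 46927 genes and 92 spike-ins, and the deposited TPM values were rescaled here to 1000000 per library over 46271 worm genes. HTSeq was run with its default settings, which count by strand, while the kits' strandedness is not given in the sources used here. The authors' quality table gives batch, use for analysis and, as a fraction of reads or TPM, mapping and contamination rates. Libraries were prepared with 2 protocols that largely follow the batch letter.

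Groups are the stages in the sample titles, which call zygotes also the used batch B P0 libraries whose stage the quality table gives as unknown. A total of 722 genes were left out before testing (666 tracking sperm genes, 36 mitochondrial, 22 rRNA, some in more than 1 class), no subunit gene among them. Counts were tested with edgeR 4.0.16 (TMM, robust quasi-likelihood, minimum count 10) in R 4.3.3, with batch and the share of genes at 1 TPM or more as covariates, between neighboring stages, between S1 and the -1 oocyte and over 7 stages. Spread beside a fold change is its SE. DESeq2 1.42.0, other factors, filters, covariates, batches and library sets were alternatives. The simulated counts used to check the test held no batch effect and no link to the detection rate. They could not show how that covariate acts on the results. Titles name the worm, so samples of a worm are paired: deviations from stage means correlated by 0.129 to 0.300 on average within worms and -0.0202 to -0.0010 between worms. Libraries titled with different worm names were taken as separate animals, while some used P0 libraries are titled as unknown worms. The main test leaves out the worm, so its p-values measure the spread between libraries, some of which share a worm.

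The subunit genes, the other gene lists and the marker lists were chosen with earlier results of these data known. Named genes are ama-1, genes called between neighboring stages, genes of paralog families, the highest and lowest gene of each complex, and called genes of the other lists. Others named were picked after their values were seen. No 2 of the 104 libraries held identical values. Coordinates are from the Ensembl annotation of WBcel235.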

Additional observations from a re-analysis of the deposited data

Results flagged for a closer look

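In the 2 stages with 6 libraries, 18 gene levels had 1 library far from the other 5, by Dixon's gap test at its 95% level. This test marks about 1 in 20 groups by chance, and 7 of 49 genes in the -3 oocyte and 11 of 49 in P0 had such a library.

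In the -3 oocyte, worm 20 was high in rpb-2 (49.5 TPM), mdt-26 (216 TPM) and mdt-30 (92.6 TPM). Worm H of batch B was low in rpb-3 (78.1 TPM), taf-4 (0.694 TPM) and mdt-31 (4.46 TPM), and worm J of batch B was high in rpb-5 (378 TPM).

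In P0, 9 of the 11 came from the deepest library (73449925 reads), one of the 4 that stand apart. It was high in taf-6.1 (354 TPM), taf-7.1 (48.6 TPM), taf-7.2 (75.5 TPM), taf-9 (478 TPM), taf-11.1 (184 TPM), taf-12 (247 TPM), mdt-1.2 (48.9 TPM), mdt-21 (4.66 TPM) and mdt-29 (91.5 TPM). Library unknownB of batch B was high in rpb-11 (782 TPM) and worm 9 in taf-6.2 (3.58 TPM). The rpb-9 call in P0 held without the deepest library (edgeR adjusted p = 0.0247).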

How the results depend on the processing

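Counts of subunit genes called by edgeR moved as follows. From S1 to S2 (5), 2 were called with all libraries, 0 in batch B alone and 8 with the worm as a replicate block, with or without the detection covariate. From S2 to S3 (5), 0 were called with all libraries, 3 in batch A, 0 in batch B, 2 without the covariate, 0 with the block and 2 with the block and no covariate. From S3 to S4 batch A alone gave 1 (taf-7.1). From S4 to the -3 oocyte batch A gave 1 (mdt-29) and the block 1 (taf-11.2), and from the -3 to the -2 oocyte DESeq2 gave 1. From the -1 oocyte to P0 (1), 3 were called with all stages in one fit, 5 with all libraries, 0 in batch A, 0 in batch B, 2 without the covariate, and 0 without the low-count filter, with or without the covariate. Leaving out each P0 library gave 0 to 1, the 0 without unknownB, and leaving out each -3 library gave 0 to 0 in both its comparisons. From S1 to the -1 oocyte (3), 12 were called in one fit, 15 with all libraries, 8 in batch A, 1 in batch B, 5 without the libraries that stand apart, 17 without the covariate, 17 also without the filter, 0 with the block and 12 with the block and no covariate. Over 7 stages 26 varied without the covariate. The block changed no other count, and no paired analysis was possible from the -1 oocyte to P0 because no named worm gave both. Median-of-ratios factors and keeping all genes moved none by over 1.5 times. Such factors moved the median of all genes from 0.11 to 0.25 (log2) from S1 to the -1 oocyte, though. Of 180 alternative values of 14 gene results, 127 kept their call, 48 lost it and 5 changed sign: in batch B rpb-12 (0.077) and taf-11.2 (-1.45) from S1 to S2, and with the block and no covariate rpb-3 (-0.21), taf-13 (-0.11) and taf-9 (-0.13) from S2 to S3. The cause was not tested. The settings without stand-apart libraries, without the S2 library of worm 34, with the block and no covariate, and with neither filter nor covariate were chosen after seeing the data. Batch B alone was fitted without the covariate and has 2 to 5 libraries a stage.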
